A study of Mus musculus with 12 samples.

Results

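The interferon regulatory factors are a small family of transcription factors, and Irf2, Irf3, Irf4, Irf5, Irf7 and Irf8 are its members on the nCounter mouse PanCancer Immune Profiling Panel beside Irf1. These 6 genes were taken from the 770 of the panel by their symbols, with earlier results of these data known. The data are from 12 A20 tumors, each grown from a B-cell lymphoma line of Balb/c origin. The line had been implanted under the skin of female Balb/c mice, and the tumors were injected every other day from about 7 days later. Of these tumors, 4 received PBS, 4 received the stable emulsion alone (SE) and 4 received GLA-SE, also named G100, which carried 10 µg of the TLR4 agonist GLA in 50 µl of 2% emulsion. Each mouse received 3 injections, and the tumor was taken 2 h after the last. The labels give neither the concentration of the emulsion in the SE group nor the age of the mice. The comparisons asked what GLA in its emulsion did to these genes, what the emulsion did without GLA, and what differed between GLA-SE and SE.

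All interferon regulatory factors share a DNA-binding domain that recognizes the interferon-stimulated response element. IRF3 is made constantly and is switched on by phosphorylation downstream of TLR4 and its adaptor TRIF, and it starts the transcription of interferon beta. IRF7 is itself an interferon target and widens the response to the interferon alpha genes. IRF5 carries the signal of MyD88 to inflammatory cytokine genes. IRF4 and IRF8 pair with PU.1 and other partners in B cells, dendritic cells and macrophages, and IRF2 competes with IRF1 for the same sites.

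The RNA came from whole tumors, so it mixes lymphoma and host cells, and fewer cells of a type and less RNA per cell cannot be told apart. Values are normalized counts, the deposited probe counts of a tumor divided by a factor from 16 of the 20 reference genes of the panel, so that each direction is relative to those reference genes. Probes differ between genes, so levels were compared between tumors and not between genes. Total counts ranged from 810260 to 1612415. The B cell markers Ms4a1, Cd79a and the rest of the 11 genes of the B cell list were detected in every tumor of this B-cell line, with summed normalized counts of 18429 to 28596. Some libraries stood apart. SE replicate 4 had the lowest reference gene level (a geometric mean of 927 counts against 1501 to 2806 in the other 11 tumors). SE replicates 3 and 4 had higher marker scores than SE replicates 1 and 2. This held for monocytes and macrophages, endothelium and fibroblasts, neutrophils, dendritic cells, NK cells and T cells. GLA-SE replicate 3 stood apart in Irf4. The replicates are different mice, and p values measure the spread between them.

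The promoters of the 4 members that rose most with GLA-SE are shown because 3 kinds of binding letters tied to interferon and TLR4 signaling could be searched in them. Each is the stretch from 250 bases before to 50 bases after the RefSeq start in GRCm38.p6, read 5′ to 3′ on the strand of the gene, with matches in capitals. They lie at chr13:30748983-30749282 for Irf4 (plus strand), chr7:141266375-141266674 for Irf7 (minus strand), chr8:120736108-120736407 for Irf8 (plus strand) and chr8:46739495-46739794 for Irf2 (plus strand).
Irf4: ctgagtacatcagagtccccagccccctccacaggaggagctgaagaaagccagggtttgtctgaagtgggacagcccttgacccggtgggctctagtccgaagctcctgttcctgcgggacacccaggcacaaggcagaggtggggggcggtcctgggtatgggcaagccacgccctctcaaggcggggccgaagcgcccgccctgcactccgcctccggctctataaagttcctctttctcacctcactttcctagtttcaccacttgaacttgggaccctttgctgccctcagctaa
Irf7: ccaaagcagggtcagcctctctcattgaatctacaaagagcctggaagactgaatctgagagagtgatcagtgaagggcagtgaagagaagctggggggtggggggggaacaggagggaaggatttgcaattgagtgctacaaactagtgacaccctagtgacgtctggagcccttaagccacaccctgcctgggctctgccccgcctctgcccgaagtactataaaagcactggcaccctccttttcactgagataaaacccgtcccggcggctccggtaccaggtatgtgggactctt
Irf8: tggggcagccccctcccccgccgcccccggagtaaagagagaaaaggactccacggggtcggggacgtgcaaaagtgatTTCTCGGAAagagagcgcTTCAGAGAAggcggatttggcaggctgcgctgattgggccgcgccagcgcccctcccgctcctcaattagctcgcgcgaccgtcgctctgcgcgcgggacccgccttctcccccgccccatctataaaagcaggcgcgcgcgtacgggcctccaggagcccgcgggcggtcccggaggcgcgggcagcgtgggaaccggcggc
Irf2: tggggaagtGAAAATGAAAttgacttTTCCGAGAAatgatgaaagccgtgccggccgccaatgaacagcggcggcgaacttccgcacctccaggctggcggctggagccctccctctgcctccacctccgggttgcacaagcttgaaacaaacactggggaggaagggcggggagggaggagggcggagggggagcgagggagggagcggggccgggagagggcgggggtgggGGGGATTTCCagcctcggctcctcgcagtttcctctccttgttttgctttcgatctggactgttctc

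The letters searched on both strands were GAAA followed by any 2 bases and another GAAA, the core of the interferon-stimulated response element, TTCNNNGAA, the core of the gamma-activated site of interferon signaling, and the kB consensus of NF-kB. The Irf2 window held 1 match to each. GAAAATGAAA began 241 bases before the start, TTCCGAGAA 224 bases before it and GGGGATTTCC 17 bases before it, without overlap. The Irf8 window held TTCTCGGAA and TTCAGAGAA, 171 and 153 bases before the start, and the window of its other listed start held none. Nothing matched in the windows of Irf4 and Irf7, the pair with the largest rise, nor in those of Irf3 (chr7:44997398-44997697) and Irf5 (chr6:29526375-29526674). Irf1, the other family member on the panel, held 1 gamma-activated site core, TTCCCCGAA, 90 bases before its start, and 1 kB match, GGGGAATCCC, 13 bases before it. Over all 32851 promoter windows of the table, 3.44% held the response element core, 8.30% the gamma-activated site core and 8.46% the kB consensus. Counted per gene, with any window of the gene, the shares over all 27025 genes were 3.99%, 9.55% and 9.55%. Among the 549 panel genes that matched the table by symbol, the shares of genes were 9.11%, 14.2% and 16.0%. A match is a run of letters and was not tested as a binding site, and no match says only that these letters are not in the window.

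With GLA-SE, 5 of the 6 members rose against PBS and none fell, at an adjusted p under 0.05 by edgeR's quasi-likelihood test with Benjamini-Hochberg adjustment over 750 genes. On the same test 68.4% of the panel was higher and 0.4% lower, so the count of members is close to that of the panel. All 4 GLA-SE tumors lay above all 4 PBS tumors for each of the 6 members, as they did for 63.7% of the panel (1.07% lay wholly below). The members did not move by the same amount. Irf4 and Irf7 rose most, followed by Irf8, Irf2 and Irf5, and Irf3 changed least. The median log2 fold change of the panel was 0.90, with Irf4 and Irf7 above it, Irf8 at about that value and Irf2, Irf5 and Irf3 below it.

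**Figure D1:**
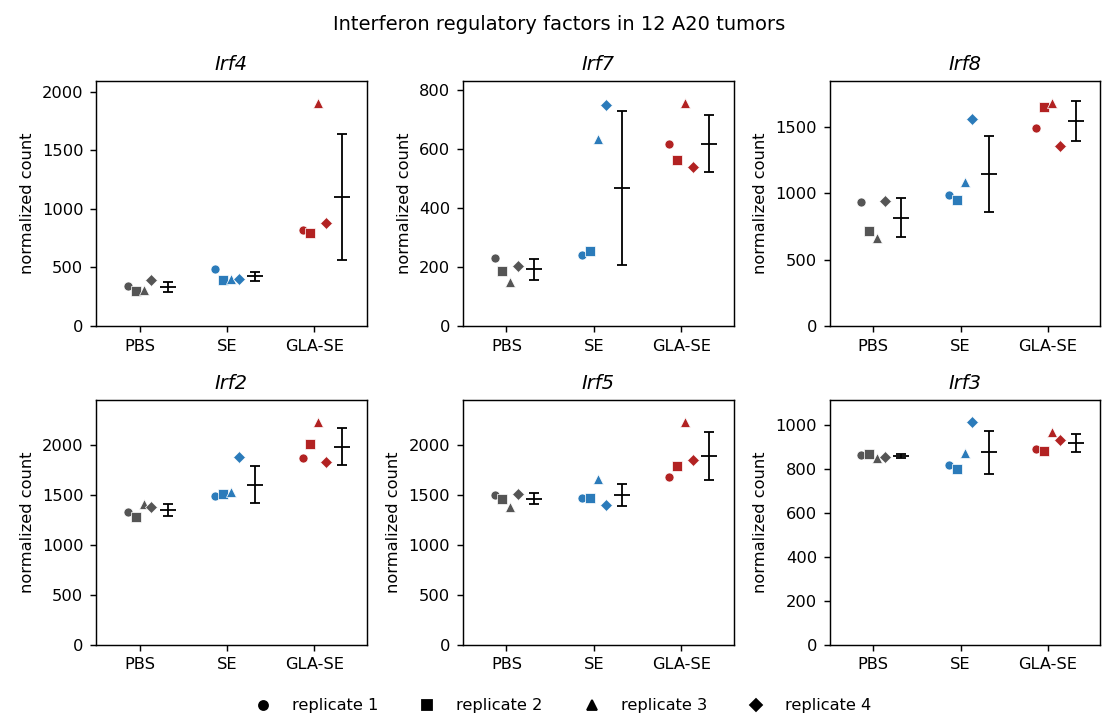
Normalized counts (vertical axes, from 0) of the 6 interferon regulatory factors in PBS, SE and GLA-SE tumors. Each symbol is 1 tumor, its shape gives the replicate, and the bar beside each group is the mean ± SD of 4 tumors; Irf4 stands highest in GLA-SE replicate 3 at 1900.2, and Irf7 splits the SE group into 239 and 255 against 633 and 750.4.

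Irf4, a regulator of plasma cell differentiation and of activated B and dendritic cells, had the largest difference between GLA-SE and SE, and with Irf7 the largest between GLA-SE and PBS. Its normalized counts in PBS tumors 1 to 4 were 344, 296, 304 and 392. SE tumors gave 485, 397, 405 and 403. In GLA-SE tumors they were 823, 793, 1900.2 and 878. The 3 groups did not overlap, although the lowest SE tumor (397) was only just above the highest PBS tumor (392), and GLA-SE replicate 3 was far above the rest of its group. Group means were 334 ± 43.9 (SD, n = 4) with PBS, 422 ± 41.8 with SE and 1099 ± 535 with GLA-SE. In log2, GLA-SE was above PBS by 1.72 (standard error 0.30, adjusted p = 0.00146, edgeR), larger than that of 86.0% of the panel. Without GLA-SE replicate 3 it remained called at 1.32, below Irf7, which was then at 1.58.

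Irf7, the interferon-induced amplifier of the interferon alpha response, rose as far as Irf4 but with another pattern in the SE tumors. PBS tumors had 229, 186, 148 and 205 normalized counts. SE tumors had 239, 255, 633 and 750.4. GLA-SE tumors had 617, 564, 755 and 538. SE replicates 3 and 4 thus lay in the range of the GLA-SE tumors, and SE replicates 1 and 2 just above that of the PBS tumors. The means were 192 ± 34.5 (SD, n = 4), 469 ± 261 and 619 ± 96.9. GLA-SE exceeded PBS by 1.69 on the log2 scale (standard error 0.18, adjusted p = 0.000229, edgeR), above 84.9% of the panel.

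Irf8, which directs the germinal center B cell, monocyte and dendritic cell programs, came next. Its normalized counts were 936, 718, 661 and 942 with PBS. With SE they were 988, 948, 1081 and 1561. With GLA-SE they were 1494, 1651, 1677 and 1357. The GLA-SE tumors were all higher than the PBS tumors, and SE replicate 4 was inside the GLA-SE range. Means of 814 ± 146 (SD, n = 4), 1145 ± 283 and 1545 ± 149 set GLA-SE above PBS by 0.92 in log2 (standard error 0.15, adjusted p = 0.00107, edgeR). This was above 51.2% of the panel, close to its middle.

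Irf2, known chiefly as an antagonist of IRF1, rose by less. PBS tumors had 1332, 1275, 1411 and 1378 normalized counts. SE tumors had 1493, 1515, 1531 and 1880.0. GLA-SE tumors had 1875, 2007, 2235 and 1829. The PBS tumors lay below all others, and SE replicate 4 was again within the GLA-SE range while the remaining SE tumors were between the 2 groups. The log2 difference between GLA-SE and PBS was 0.56 (standard error 0.097, adjusted p = 0.00149, edgeR) from means of 1987 ± 182 and 1349 ± 58.9 (SD, n = 4).

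Irf5, which acts downstream of MyD88, rose the least of the 5 that were called. Its normalized counts were 1501, 1461, 1384 and 1511 in PBS tumors. They were 1475, 1469, 1658 and 1398 in SE tumors, which overlapped the PBS range. They were 1679.7, 1797, 2236 and 1853 in GLA-SE tumors, above every tumor of the other groups. In log2 the rise over PBS was 0.37 (standard error 0.11, adjusted p = 0.0153, edgeR), larger than that of 21.1% of the panel.

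Irf3, the factor that TLR4 signaling switches on at the protein level, had nearly level transcripts. The PBS tumors were close together, at 861, 867, 849.8 and 854. SE tumors had 815, 799, 872 and 1013. GLA-SE tumors had 889, 878, 967 and 929.5. All GLA-SE tumors were thus higher than all PBS tumors, by a narrow margin (878 against 867). An exact permutation of the group labels, with 70 ways to split the 8 tumors, gave a two-sided p = 0.0286, the smallest it can give. The log2 fold change was 0.095 (standard error 0.088) with an adjusted p of 0.355 by edgeR, so Irf3 was not called. Only 9.47% of the panel had a lower log2 fold change.

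**Figure D2:**
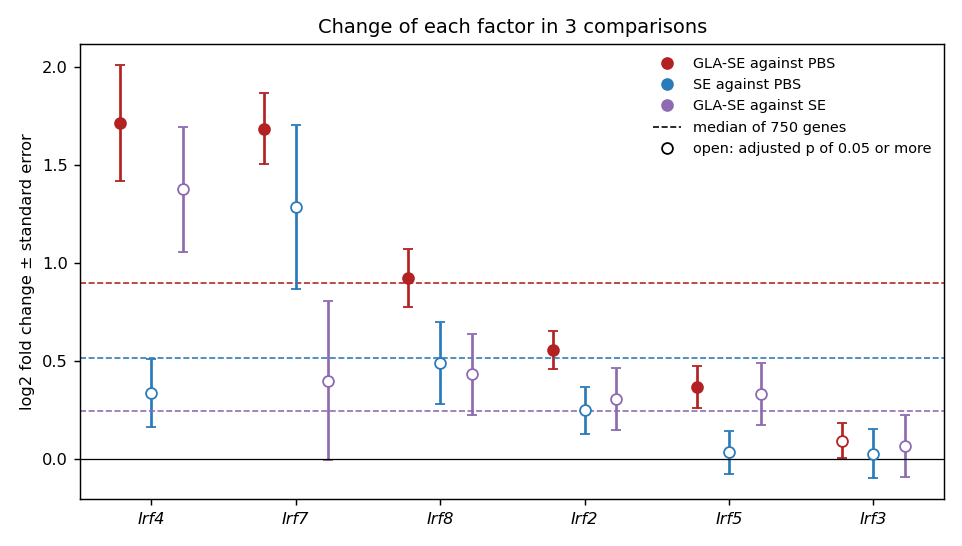
Log2 fold change ± standard error of each member (vertical axis) in the 3 comparisons, with filled symbols at an adjusted p under 0.05 and dashed lines at the median of the 750 genes in the comparison of that color. Filled symbols appear only for GLA-SE against PBS, where Irf4 and Irf7 are above the panel median of 0.90, Irf8 is at 0.92 and Irf3 is lowest at 0.095.

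Irf1, the member of the family not in this set, rose from 2176 ± 537 to 4952 ± 1143 normalized counts between PBS and GLA-SE (log2 fold change 1.19, adjusted p = 0.00186, edgeR), between the values of Irf7 and Irf8.

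Which members rose depends on the scale, because most of the panel rose against the reference genes. With each tumor scaled to the median of its panel genes, the panel's own median became -0.40 and no member was called higher, while Irf2 (-0.74), Irf3 (-1.20), Irf5 (-0.93) and Irf8 (-0.35) were called lower. Irf4 and Irf7 stayed positive at 0.37 and 0.40, with adjusted p values of 0.153 and 0.0507 (edgeR). With TMM, which assumes that most genes do not change, the panel median was 0.13. Irf4 and Irf7 were then called higher and Irf3 (-0.67) and Irf5 (-0.41) lower. The deposited counts with no rescaling gave 3 members called higher (Irf4, Irf7 and Irf8). The order was steadier than the direction. In all 20 alternatives tried on GLA-SE against PBS, Irf4 and Irf7 were the first and second in either order, followed by Irf8, Irf2, Irf5 and Irf3. A change of scaling shifts all members nearly alike, so its share of these 20 says little about the order.

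**Figure D3:**
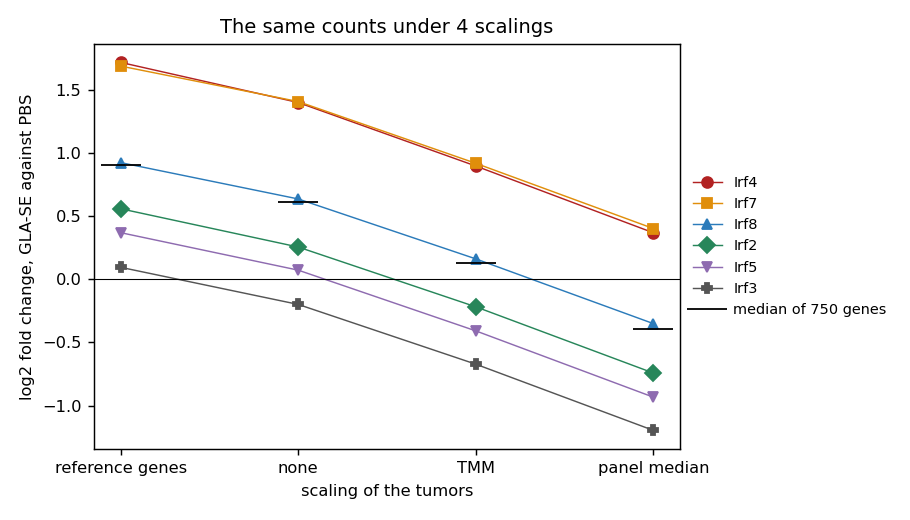
Log2 fold change of GLA-SE against PBS (vertical axis) for each member under 4 scalings of the same counts, with a black bar at the median of the 750 genes. The lines are nearly parallel: Irf4 and Irf7 stay above 0 and above the panel median, and Irf2, Irf5 and Irf3 go from above 0 with the reference genes to below 0 with TMM and the panel median.

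Ratios of members within a tumor hardly depend on its scaling. They were taken as differences of log2(normalized count + 1), for the 15 pairs in the 3 comparisons, with 45 exact permutation tests. For GLA-SE against PBS, 13 of the 15 pairs had ratios that did not overlap between the groups, against 35.6% of all 280875 pairs of tested panel genes. The 15 pairs share their 6 members. The exact p of each was 0.0286, the smallest possible, which became 0.0584 after Benjamini-Hochberg adjustment over the 45, so none passed 0.05. Relative to Irf3, Irf7 was higher by 1.59 on the log2 scale with GLA-SE than with PBS, Irf4 by 1.53, Irf8 by 0.84, Irf2 by 0.46 and Irf5 by 0.27. Irf3 changed least of the 6, so the choice of Irf3 as the base already sets the direction of these mean ratios. The ratio to Irf3 also did not overlap, and was higher, for 58.3% of the other 749 genes tested, with a median change of 0.78. The Irf7 to Irf3 ratio in log2 was -1.90, -2.22, -2.52 and -2.05 in PBS tumors and -0.53, -0.64, -0.36 and -0.79 in GLA-SE tumors. The pairs that overlapped were Irf2 with Irf5 (exact permutation p = 0.0857) and Irf4 with Irf7, whose ratio differed by -0.069 (exact permutation p = 0.8).

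**Figure D4:**
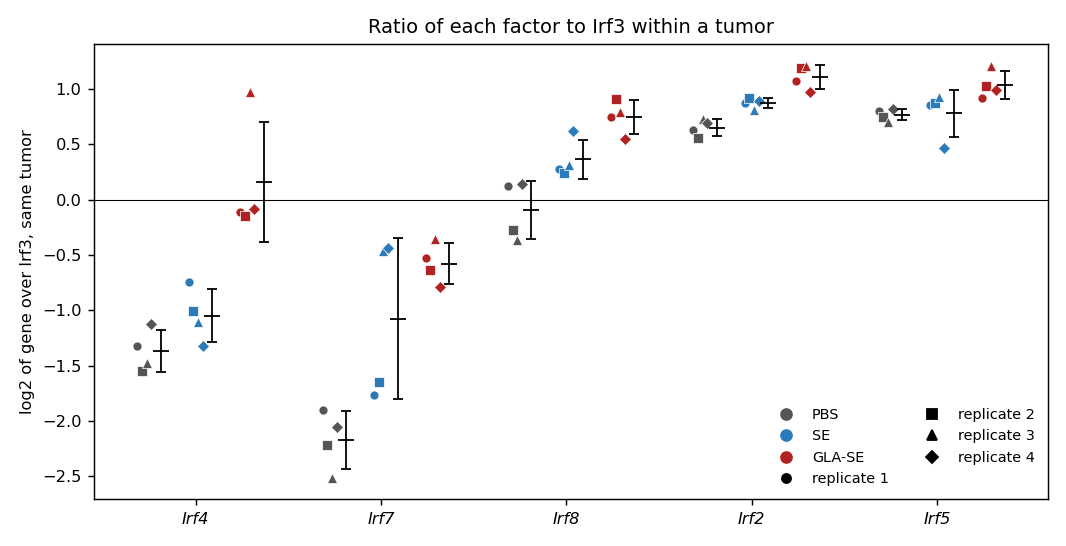
Log2 ratio of 5 members to Irf3 in the same tumor (vertical axis), by group, with the mean ± SD of 4 tumors beside the symbols. PBS and GLA-SE tumors are apart for all 5 members, and SE replicates 3 and 4 reach the GLA-SE values for Irf7 (-0.46 and -0.43) and remain at -1.11 and -1.33 for Irf4.

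With the emulsion alone, no member and 0% of the panel in either direction passed an adjusted p of 0.05 against PBS by edgeR, although 134 genes had an unadjusted p under 0.05. Irf7 had the largest difference, 1.29 in log2 against PBS (standard error 0.42), at an adjusted p of 0.256 by edgeR. Leaving out each tumor in turn gave 0.97 to 1.51, with no call. For Irf8 it was 0.49 (standard error 0.21), for Irf4 0.34 (0.17) and for Irf2 0.25 (0.12), with adjusted p values of 0.256 to 0.263 by edgeR. For these 4 members all SE tumors were above all PBS tumors, as they were for 8% of the panel (1.2% lay wholly below), with gaps as narrow as 948 against 942 for Irf8. Irf5 and Irf3 overlapped, at 0.035 (standard error 0.11) and 0.028 (0.12). Of the 15 ratios of members within tumors, 5 did not overlap between SE and PBS, against 5.86% of all pairs of panel genes. Irf7 and Irf8 were higher relative to Irf3 and Irf5, and Irf2 relative to Irf3. Each had an adjusted p of 0.0584 by the exact permutation test. With DESeq2 and the same reference genes, Irf7 was called (adjusted p = 0.0391), with 47 genes of the panel higher and 6 lower.

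The Irf7 values of the SE tumors went with those of the monocyte and macrophage list (Csf1r, Cd68, Emr1 and 8 more). Its score, the mean of log2(normalized count + 1), was 8.94 and 8.67 in SE replicates 1 and 2, 10.8 and 11.5 in SE replicates 3 and 4, 8.96 to 9.44 with PBS and 10.7 to 11.1 with GLA-SE. Irf4 did not split in this way, with 405 and 403 normalized counts in SE replicates 3 and 4. The log2 ratio of Irf4 to Irf7 was 1.02 and 0.64 in SE replicates 1 and 2 and -0.64 and -0.89 in SE replicates 3 and 4, the lowest of the 12 tumors. With PBS it was 0.58 to 1.04, and with GLA-SE 0.42 to 1.33. The same SE tumors were also higher in the interferon target list, with scores of 7.67 and 8.26 against 6.68 and 6.57. Other cell type lists split the SE tumors the same way. The score of the endothelium and fibroblast list was 7.60 and 7.90 in SE replicates 1 and 2 and 9.34 and 11.2 in SE replicates 3 and 4. In the same order the neutrophil score was 4.98, 4.93, 6.30 and 7.26, the dendritic cell score 6.30, 6.34, 7.34 and 7.97, and the NK cell score 5.78, 5.81, 6.88 and 6.98. The T cell score was 6.38, 6.69, 7.16 and 9.07. The B cell score did not split in this way, at 9.42, 9.48, 9.38 and 9.65. The part of any of these cells in the Irf7 values was not tested. SE replicates 3 and 4 also had the lowest reference gene levels of the 12 tumors, with geometric means of 1501 and 927 counts. Before scaling, the deposited Irf7 counts of SE replicates 1 to 4 were 359, 249, 508 and 372. The part of the low reference gene levels in the split was not tested.

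**Figure D5:**
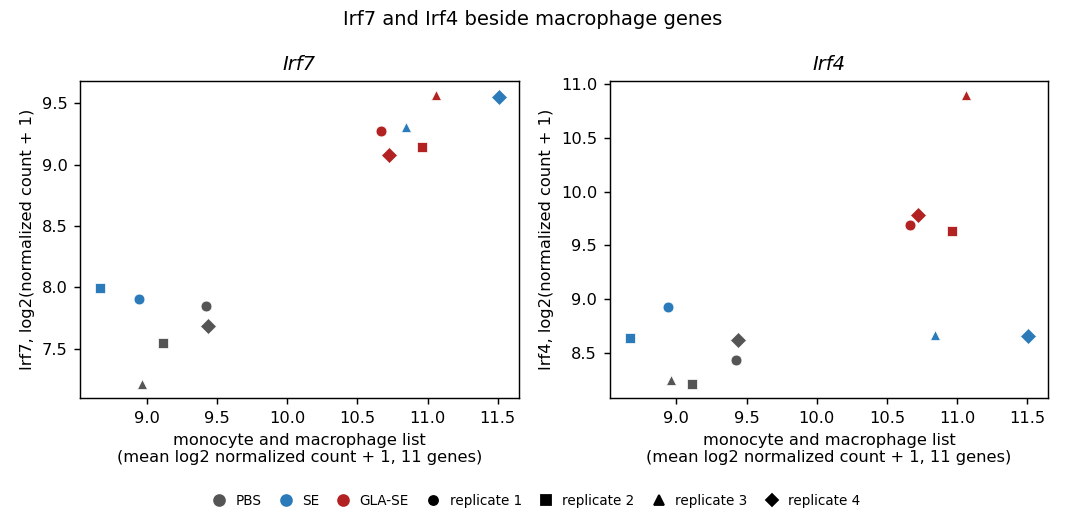
Log2(normalized count + 1) of Irf7 (left) and Irf4 (right) on the vertical axes against the score of the 11 monocyte and macrophage genes on the horizontal axes, 1 symbol per tumor. SE replicates 3 and 4 lie with the GLA-SE tumors for Irf7 and with the PBS and other SE tumors for Irf4; the 12 points share the same libraries and scaling, and no correlation was computed.

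GLA-SE was then set against SE, a comparison that shares its tumors with the other 2. Irf4 differed most. All GLA-SE tumors had more Irf4 than all SE tumors, and the log2 fold change was 1.38 (standard error 0.32), larger than that of 91.6% of the panel. Its adjusted p was 0.0788 by edgeR, so no member was called, while 2.13% of the panel was higher and 0% lower. Irf4 was called when SE replicate 4 was left out (1.36, adjusted p = 0.0481), when GLA-SE replicate 3 was left out (0.98, adjusted p = 0.0409) and when both were (0.95, adjusted p = 0.0278), all by edgeR. It was also called with all 12 tumors in 1 fit (adjusted p = 0.0144) and with DESeq2 and the reference genes (0.000527). It was not called without any other 1 tumor (adjusted p up to 0.211, edgeR), with the replicate block (0.158), with TMM (0.81, adjusted p = 0.269) or with panel median scaling (0.31, adjusted p = 0.632). Of the 12 alternatives that left out no tumor, 10 did not call Irf4 and 2 did. Irf8 (0.43, standard error 0.21) was called only without SE replicate 4, at 0.62 with an adjusted p of 0.0318 by edgeR. Irf5 differed by 0.33 (standard error 0.16), Irf2 by 0.31 (0.16), Irf7 by 0.40 (0.41) and Irf3 by 0.067 (0.16), with adjusted p values of 0.312 to 0.888 by edgeR. The GLA-SE tumors were wholly above the SE tumors for Irf4 and Irf5, against 14.7% of the panel (0.133% lay wholly below). Within tumors, Irf4 was higher relative to Irf2, Irf3 and Irf5 in every GLA-SE tumor than in any SE tumor. With Irf2 relative to Irf3, these were the 4 of 15 pairs that did not overlap. Each had an adjusted p of 0.0584 by the exact permutation test. In this comparison 14.95% of the other 749 genes were wholly higher relative to Irf3, and 13.4% of all pairs of panel genes did not overlap. Irf1 was called in this comparison, at 1.03 (adjusted p = 0.0326, edgeR).

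Among the genes upstream of these factors, which run from the Toll-like receptors and RNA and DNA sensors through their adaptors to TBK1 and the IKK kinases, 21 of 26 rose with GLA-SE against PBS and none fell. Their median log2 fold change was 0.56, against 0.90 for the panel, of which 68.4% was higher. The largest rises were in Cd14, the co-receptor of TLR4 (3.71, adjusted p = 0.00777, edgeR), the IRF3 and IRF7 kinase gene Ikbke (1.68, 0.000489), the RNA receptor gene Tlr8 (1.60, 0.000431) and the nucleic acid sensor gene Zbp1 (1.55, 0.000345). Cd14 varied widely among the GLA-SE tumors (2208 ± 3085, SD, n = 4). Zbp1 was the gene of this list that also rose against SE (1.22, adjusted p = 0.0442, edgeR).

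Of the 10 genes for type I interferons and their receptor, kinases and STAT factors, 6 rose and none fell, with a median of 0.79. Both are below the panel, of which 68.4% was higher, with a median of 0.90. None of the 4 interferon genes of the list was among those that rose. Their levels were low, and their log2 fold changes were -0.35 for Ifna1, 0.00051 for Ifna2, 0.32 for Ifna4 and 0.11 for Ifnb1, with adjusted p values of 0.355 to 0.998 by edgeR. Stat2, a subunit of the factor that type I interferon activates, rose by 0.80 against PBS (adjusted p = 0.000428, edgeR). The receptor genes Ifnar1 and Ifnar2 rose by 0.93 (0.000490) and 1.17 (0.000239).

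Interferon targets were higher in 23 of 25 cases with GLA-SE against PBS, beside 68.4% of the panel, and none was lower. Their median of 1.49 was above that of the panel (0.90). Oasl1 rose by 4.09 (adjusted p = 0.00252, edgeR), the antiviral gene Rsad2 by 2.70 (0.000701), the ubiquitin-like modifier Isg15 by 2.19 (0.00112) and the chemokine Cxcl10 by 2.05 (0.000447). Cxcl10 was the target that also rose against SE, by 2.11 (adjusted p = 0.00977, edgeR), and it was at -0.054 with SE against PBS. With SE against PBS, none of the genes of these 3 lists was called.

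For 10 other regulators of B cells, among them Pax5 and Bcl6, the median with GLA-SE against PBS was 0.065, against 0.90 for the panel. Of these 10, 2 rose and none fell, beside 68.4% of the panel higher. The 2 were Prdm1, which drives plasma cell differentiation together with Irf4 (2.02, adjusted p = 0.000345, edgeR), and Xbp1, which builds the secretory machinery of plasma cells (0.68, 0.00540). Prdm1 differed by 1.46 between GLA-SE and SE, with an adjusted p of 0.0802 by edgeR, close to that of Irf4.

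Marker genes of several cell types were also higher. All 11 genes of the monocyte and macrophage list rose with GLA-SE against PBS (median 1.57), and their summed normalized counts were 32672 to 41294 in PBS tumors, 27870 to 120146 in SE tumors and 92053 to 128846 in GLA-SE tumors. The B cell list had 2 genes higher (Fcer2a and Cd37) and 2 lower (Ms4a1 and Cd79b) of 11, beside 68.4% of the panel higher and 0.4% lower. Its median was 0.18, and its sums were 25002 to 28596 with PBS and 23081 to 26300 with GLA-SE. Called higher in the same comparison were 4 of 8 dendritic cell genes, 3 of 5 neutrophil genes, 4 of 8 T cell genes, 4 of 5 NK cell genes and all 7 endothelium and fibroblast genes, beside 68.4% of the panel. No marker of these lists was at 0 in any tumor, but Xcr1, Cd207, Lamp3, Ncr1, Klrb1c, Cxcr2, Elane and Tek were under 20 normalized counts in at least 1. The neutrophil sum was 204 to 226 with PBS and 805 to 8998 with GLA-SE, with 193 to 1162 in SE tumors. The endothelium and fibroblast sum was 3975 to 9072 with PBS, 3403 to 118950 with SE and 17983 to 26084 with GLA-SE. T cell sums were 908 to 2562, 765 to 5317 and 2564 to 3620 in the same order. NK cell sums were 289 to 928, 354 to 944 and 1327 to 1542, and dendritic cell sums 1597 to 2184, 1963 to 4496 and 3204 to 9896. The part of these cells in the rise of the members was not tested.

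Set against the mean of the B cell list in the same tumor, 4 of the 6 members were higher in all GLA-SE tumors than in all PBS tumors, as were 51.6% of the 739 tested genes outside the list. The log2 difference was 1.55 for Irf7, 1.48 for Irf4, 0.79 for Irf8 and 0.41 for Irf2, each with an exact permutation p of 0.0286, or 0.0643 after adjustment over the 18 such tests. Irf5 (0.22, exact permutation p = 0.0571) and Irf3 (-0.049, exact permutation p = 0.657) overlapped. Against SE, 2 of the 6 members were wholly higher on this ratio, Irf4 by 1.17 and Irf2 by 0.20, as were 10.8% of those 739 genes. With SE against PBS, 2 of the 6 were wholly higher, Irf7 by 1.08 and Irf2 by 0.21, as were 6.22% of the 739.

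Across the 12 tumors, the panel genes whose log2 values were most like those of a member were found by Pearson's r among 668 genes with a mean count of at least 20, as a description over tumors of 3 groups that share scaling. For Irf4 they included Hif1a (r = 0.966). Irf7 was most like the interferon target Ifi44 (0.978), the lysosomal protease gene Ctss (0.975) and Il3 (0.971). For Irf8 they were the inhibitory Fc receptor gene Fcgr2b (0.950), Stat2 (0.943) and Cd47 (0.939). Irf2 was followed by Pml (0.971), Cd38 (0.969) and the complement gene Cfb (0.967). Irf5 was followed by Ly9 (0.960), Nos2 (0.955) and Cd274, the gene of PD-L1 (0.953), and Irf3 by Stat6 (0.941), Klra17 (0.939) and Cd44 (0.935).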

How the data were processed

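RNA of 12 A20 tumors had been counted on the nCounter mouse PanCancer Immune Profiling Panel. The authors deposited 1 table of counts, whole numbers of barcoded probes per gene and tumor. The methods name normalization in nSolver, but totals and reference genes differ between tumors, so the counts were treated as not normalized. No alignment or genome build applies to them. Groups came from the labels.

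The geNorm procedure over all 12 tumors kept 16 of the 20 reference genes, taken as the panel genes that the study's gene table leaves out, and each tumor was scaled to their geometric mean. Pairs of groups were compared with edgeR 4.0.16 (quasi-likelihood test, R 4.3.3) on the 8 tumors of the pair, with no filter and no covariate, with Benjamini-Hochberg adjustment of p across the 750 tested genes (threshold 0.05). Exact two-sided permutation tests over all splits of the tumors covered single values and ratios with a pseudocount of 1. SciPy 1.17.1 gave the Benjamini-Hochberg adjustment of the ratio tests. Depth limits low genes, and 4 tumors a group limit all of them.

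The members and gene lists were chosen with earlier results of these data known. Named genes are all members, Irf1, up to 4 genes per list with the largest absolute change in GLA-SE against PBS (called genes whose mean reached 20 in 1 group) and the 3 genes most like each member. Some genes that this rule picks are not reported here. The interferon genes were named after their values were seen. Markers named to describe a list, such as Cd79a, only show what it holds. Replicate numbers did not pair the tumors and were not used in the main fit. Alternatives were all reference genes, geNorm per comparison, panel median scaling, TMM, no rescaling, a filter of 20 counts in 4 tumors, all tumors in 1 fit, the replicate number as a block, DESeq2 1.42.0, limma 3.58.1 with pseudocounts of 1 and 10, and leaving out each tumor. Leaving out 2 tumors together was chosen after seeing the data. Promoter sequences are RefSeq's (GRCm38.p6), matched by symbol for all 6 members and Irf1. The motif searches and the shares of panel genes with ratios that did not overlap were also chosen after seeing the data. Figures were drawn with matplotlib 3.10.9.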

Additional observations from a re-analysis of the deposited data

Results flagged for a closer look

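Of 21 sets of 4 tumors (the 6 members and Irf1 in each group), 3 held a tumor far from its group by Dixon's criterion, which chance passes in about 5% of sets. Irf4 in GLA-SE replicate 3 was 1900.2 normalized counts, against 793 to 878 in the other GLA-SE tumors. Irf4 in SE replicate 1 was 485, against 397 to 405 in the other SE tumors. Irf2 in SE replicate 4 was 1880.0, against 1493 to 1531 in the other SE tumors.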

How the results depend on the processing

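Relative to the reference genes, the calls of Irf2, Irf4, Irf5, Irf7 and Irf8 in GLA-SE against PBS held without any 1 tumor. Counts below are for the panel, higher and lower. For GLA-SE against PBS (513 and 3), scaling to the panel median gave 61 and 307, with 0 members higher and 4 lower, TMM 193 and 133, with 2 and 2, and DESeq2 with its own size factors 193 and 153, with 2 and 3. No rescaling gave 17 lower and 3 members higher, all reference genes 8 lower, 1 fit of all 12 tumors 255 and 0, and leaving out a tumor 5 lower at most. Log2 fold changes reversed for Irf2 (-0.74 panel median, -0.22 TMM, -0.30 DESeq2 with its own size factors), Irf3 (-1.20, -0.67, -0.75, and -0.20 with no rescaling), Irf5 (-0.93, -0.41, -0.49) and Irf8 (-0.35 panel median). These shifts follow from the scaling, which moved the panel median from 0.90 to -0.40, 0.13 and 0.049.

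For SE against PBS (0 and 0), DESeq2 gave 7 and 5 with its own size factors and 47 and 6 with the reference genes, each with 1 member higher, Irf7. Small values reversed under panel median, TMM, no rescaling and DESeq2 with its own size factors, for Irf2 (-0.12, -0.096, -0.13, -0.095), Irf3 (-0.35, -0.32, -0.34, -0.32) and Irf5 (-0.28, -0.27, -0.29, -0.27). Irf3 was -0.012 with all reference genes and -0.050 without SE replicate 4 (-0.050 to 0.069 over the left-out tumors), and Irf5 -0.017 without SE replicate 3 (-0.017 to 0.067).

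For GLA-SE against SE (16 and 0), panel median scaling gave 0 higher, TMM 3, no rescaling 88 and 1, 1 fit of all tumors 77 and 2 with 1 member, DESeq2 with its own size factors 54 and 26, and DESeq2 with the reference genes 111 and 8 with 1 member. Leaving out each tumor gave 4 to 104 higher (104 and 1 lower without SE replicate 4) and 0 to 2 members, and leaving out GLA-SE replicate 3 and SE replicate 4 together gave 52 and 1 member. Values reversed under panel median, TMM and DESeq2 with its own size factors for Irf2 (-0.62, -0.16, -0.26), Irf3 (-0.84, -0.39, -0.49) and Irf5 (-0.65, -0.17, -0.28), under panel median and DESeq2 with its own size factors for Irf8 (-0.42, -0.073) and under panel median for Irf7 (-0.22). Causes other than scaling were not tested.

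Replicate numbers are shared by different mice, and same-numbered tumors correlated in their deviations by -0.25 to 0.18. With the replicate block, GLA-SE against PBS had 437 genes higher and 2 lower, Irf5 (0.36) had an adjusted p of 0.0650 by edgeR, and GLA-SE against SE had 0 genes called.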
